A study of Mus musculus with 12 samples.

Results

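The heat shock response was followed in KPC cells through 10 genes, Zfand2a, Hspa1a, Hspa1b, Hspa8, Hsph1, Hsp90aa1, Hsp90ab1, Dnajb1, Hspb1 and Bag3, picked by symbol as targets of heat shock factor 1 (HSF1) and cytosolic chaperones. Of these, 9 had values among the 15803 genes with a read in at least 1 library, and Hspa1a was not analysed here. The list was drawn up after the rise of Zfand2a footprints at 6 h of treatment had been seen in these data. For this reason all comparisons of the 6 h footprints of these 10 genes are given as a description, without a test.

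KPC cells are a mouse pancreatic ductal adenocarcinoma line, derived according to the study's methods from a mouse with a mutant Trp53 allele switched on by Pdx1-Cre, a Cre driven in pancreatic epithelium. All libraries came from this line, so the controls carry the same genotype. Ribosome profiling, which sequences the mRNA fragments covered by ribosomes (footprints), and RNA-seq were each measured in 3 groups, namely cells labelled as untreated, cells given cisplatin (Cis) for 6 h and cells given Cis for 21 h. The methods give 20 μM for Cis and PBS for the control, and the labels do not say how long the control was kept. Each group had 2 libraries per assay, 12 in all, and since the labels do not say whether these were separate cultures, the p-values measure only the spread between libraries, which may be technical.

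Footprint libraries held 3375480 to 5204127 reads and RNA libraries 1985344 to 2901692, of which 51.8% to 56.6% lay in only 3 transcripts (Lars2, Tmem38b and Mettl26), leaving 862476 to 1341584 for all other genes. The 7 ductal markers that were checked (keratins, Epcam, Cdh1 and Sox9) summed to 6728 to 9794 RPKM in footprint libraries. Most of this came from Krt8, Krt18 and Krt19. Epcam read at most 1.83 RPKM in footprints and 0.842 in RNA, and Krt7 at most 21.9 in footprints. RPKM is the number of reads per length of the transcript and depth of the library. The highest sum in any library was 5.40 RPKM for 4 immune markers, 0.666 for 3 endothelial markers and 2.14 for 4 fibroblast markers, and none of 4 acinar markers was listed. In such bulk libraries fewer cells of a kind and less RNA per cell cannot be told apart.

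HSF1 is held inactive by chaperones and is freed when misfolded proteins occupy them. It then binds heat shock elements, inverted repeats of the bases GAA, and drives the genes of chaperones and of their helpers. HSP70 proteins fold clients with J-domain proteins such as DNAJB1 and nucleotide exchange factors such as HSPH1 and BAG3, HSP90 proteins act on kinases and receptors, and small heat shock proteins such as HSPB1 hold unfolded clients. ZFAND2A, also called AIRAP, is an arsenite-inducible zinc finger protein that associates with the proteasome.

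The promoter sequences show which of the genes carry the letters of a heat shock element close to the start. RefSeq promoters (GRCm38.p6, 250 bases before to 50 after the annotated start) matched 7 of the 10 genes, with 9 promoters in all, and Hspa8, Hsp90aa1 and Hsp90ab1 were not matched. A triple element has blocks GAA, TTC and GAA or TTC, GAA and TTC, with any 2 bases between neighbouring blocks. It was searched on both strands and found in Hsph1 only, in 2 of the 9 promoters, against 0.603% of all 32851 promoters. These 2 promoters are overlapping windows on the same gene and hold the same element. The shorter double element has GAA and TTC in either order with any 2 bases between them, and reads alike on both strands. It is contained in every triple element and was found in 6 of the 7 genes. By promoter this was 7 of the 9, against 15.1% of all promoters. Dnajb1 had neither element in this window. The genes were picked as HSF1 targets and cytosolic chaperones. A share above that of all promoters therefore comes with the choice and is no result of these data. The windows below hold the match in capitals, with up to 8 bases on each side, and positions count from the start (0) to the first base of the match.
Zfand2a, at position -196 from the start: cctgactgTTCTAGAAaataggcg
Hspa1a, at position -104: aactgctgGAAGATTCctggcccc
Hspa1b, at position -104: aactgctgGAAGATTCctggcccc
Hspb1, at position -117: caacaagaGAAGTTTCcagatggg
Hspb1, at position -97: tgggggcaGAACCTTCctggcccc
Hsph1, at position -54: tagaatctTTCTCGAAggctcgag
Hsph1, triple element at position 15: gctgcagaTTCTGGAAAGTTCtcc
Bag3, at position 42: tgggaccaGAAGTTTC
The promoters of Hspa1a and Hspa1b, neighbouring genes for nearly the same protein, differed at 4 of 300 bases, and their windows read alike. The whole promoter of Zfand2a, the gene with the largest footprint change, is shown for context, at chr5:139484442-139484741 on the minus strand, with its double element in capitals.
Zfand2a: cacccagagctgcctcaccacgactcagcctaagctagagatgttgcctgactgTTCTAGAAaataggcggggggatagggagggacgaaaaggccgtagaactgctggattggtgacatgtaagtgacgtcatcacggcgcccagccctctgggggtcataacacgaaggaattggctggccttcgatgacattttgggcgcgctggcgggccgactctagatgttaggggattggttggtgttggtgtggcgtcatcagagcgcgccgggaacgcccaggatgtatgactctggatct
A match describes these letters and does not show that a factor was bound.

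Zfand2a had the largest footprint rise of these genes. Its footprints stood at 7.87 and 5.86 RPKM in the control libraries, at 15.0 and 21.9 after 6 h of Cis and at 46.0 and 48.6 after 21 h. The 3 groups did not overlap, and the 21 h libraries were above both others. These values rest on few reads, 14 to 21 per control library, 36 to 38 at 6 h and 87 in each library at 21 h. With 2 libraries in a group, a lack of overlap, here and for the genes below, is a description and no test. Its share over all transcripts was not counted. RNA of Zfand2a read 6.92 and 8.26 RPKM in control cells, 9.38 and 10.4 at 6 h and 25.5 and 30.2 at 21 h, from 54 to 200 reads. The RNA of the 6 h cells thus lay just above that of the controls, while the 21 h libraries were well apart.

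**Figure D1:**
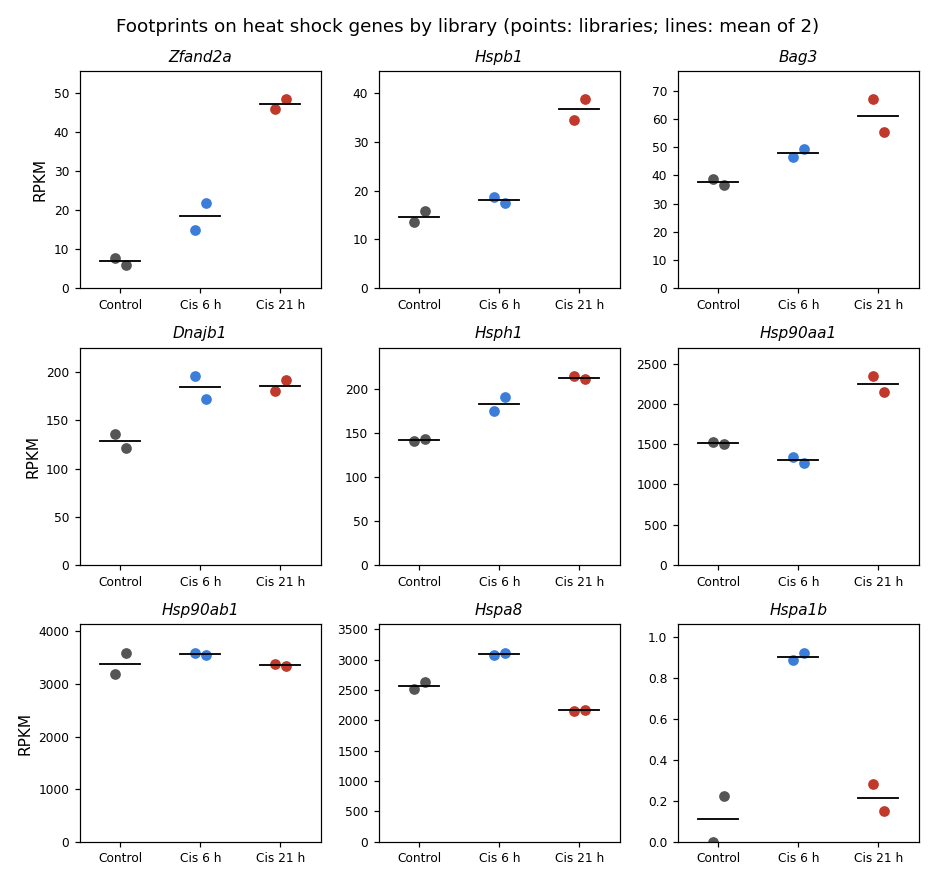
Footprint RPKM (y axis, linear, from 0) of each heat shock gene in the control, Cis 6 h and Cis 21 h groups. Points are the 2 libraries and lines their mean. Zfand2a climbs from 6.86 to 18.5 and 47.3 RPKM, while Hspa8 is highest at 6 h (3092) and lowest at 21 h (2165).

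On the log2 scale, Zfand2a footprints were 1.34 above control at 6 h (1.07 to 1.61 over the alternatives, with no test, since this rise chose the list) and 2.68 ± 0.20 (SE, adjusted p = 5.06e-05) above it at 21 h, a fold of 6.39. The 21 h comparison uses the same control libraries as the 6 h values. At 21 h this was the change ranked 14 from the top of 10383 transcripts. RNA of Zfand2a was higher by 0.43 ± 0.16 at 6 h, which did not pass (adjusted p = 0.370), and by 1.72 ± 0.16 at 21 h (adjusted p = 0.000176). The RNA rise from 6 h to 21 h was 1.30 ± 0.16 (adjusted p = 0.00112).

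The ratio of footprint to RNA RPKM, the translational efficiency (TE), was 1.14 and 0.708 for Zfand2a in control cells (dividing libraries of the same replicate number), 1.59 and 2.11 at 6 h and 1.81 and 1.61 at 21 h. Both treated groups lay above both control values. In the interaction model over all 12 libraries the TE of Zfand2a at 21 h was 0.95 higher on the log2 scale (95% interval 0.35 to 1.55), with an unadjusted p of 0.00461 that did not pass adjustment over 9295 transcripts (adjusted p = 0.175). At 6 h the difference in TE was 0.91, given without a test, since it uses the 6 h footprints that chose the list. In control cells Zfand2a had the lowest TE of the 8 genes with a mean of at least 1 RPKM in both assays, 0.922 ± 0.303 (SD, n = 2). The other 7 ran from 3.55 for Hsp90ab1 to 9.0 for Hsp90aa1. Replicate numbers did not pair footprint and RNA libraries. The single ratios and the SD therefore depend on an arbitrary division and are not a measured spread. The Zfand2a ratio rests on 21 and 14 control footprint reads, the baseline of the 6 h rise that chose the list. Hspb1 had only 4 and 6 control RNA reads.

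Hspb1, the small heat shock protein HSP27, was the gene with the next largest rise. Its footprints were 13.5 and 15.7 RPKM in control cells, 18.7 and 17.5 at 6 h and 34.6 and 38.8 at 21 h. The gain over control at 21 h was 1.27 ± 0.15 on the log2 scale (adjusted p = 0.000339), and at 6 h the difference was 0.29 with no overlap between the libraries. RNA of Hspb1 was scarce, with 2 to 21 reads per library, and read 1.80 and 2.29 RPKM in control cells, 1.12 and 5.28 at 6 h and 9.98 and 6.89 at 21 h. The 6 h libraries straddled the controls, and both 21 h libraries were higher than all others. The RNA change at 21 h was 1.72 ± 0.50 (adjusted p = 0.0326).

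Bag3, a co-chaperone that releases nucleotide from HSP70 and links it to autophagy, rose less, in both assays. Footprints of Bag3 read 38.6 and 36.4 RPKM in control cells, 46.7 and 49.3 at 6 h and 67.1 and 55.2 at 21 h. The groups did not overlap. At 21 h Bag3 footprints were 0.65 ± 0.12 higher on the log2 scale (adjusted p = 0.00324). Bag3 RNA was 9.04 and 7.80 RPKM in control cells, 10.2 and 8.62 at 6 h and 12.9 and 15.1 at 21 h. Here the 6 h values overlapped the controls, and the change at 21 h was 0.62 ± 0.18 (adjusted p = 0.0310, but 0.0569 with quantile normalization).

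Dnajb1, the J-domain protein HSP40 that stimulates HSP70, had about the same footprint level at 6 h as at 21 h. Its footprints were 135 and 122 RPKM in control cells, 196 and 173 at 6 h and 180.1 and 192 at 21 h. Both treated groups were above control and overlapped each other. The footprint change at 21 h was 0.50 ± 0.10 (adjusted p = 0.00451), and the 6 h difference was also 0.50 (no test). Dnajb1 RNA was 16.9 and 14.1 RPKM in control cells, 13.8 and 20.7 at 6 h and 26.8 and 25.4 at 21 h. At 6 h the RNA libraries lay on either side of the controls, with a change of 0.19 ± 0.20 (adjusted p = 0.752), and at 21 h the RNA was 0.65 ± 0.20 higher (adjusted p = 0.0371). This Dnajb1 call was lost in 8 of 17 alternatives, among them quantile normalization (adjusted p = 0.0786) and the replicate block (0.0508).

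Hsph1, the HSP110 nucleotide exchange factor of HSP70, read 141 and 144 footprint RPKM in control cells, 176 and 192 at 6 h and 215 and 212 at 21 h. Each group was above the one before it without overlap. Its footprints at 21 h were 0.55 ± 0.09 above control on the log2 scale (adjusted p = 0.00143). Hsph1 RNA stood at 35.3 and 32.5 RPKM in control cells, 36.2 and 38.6 at 6 h and 48.8 and 55.6 at 21 h, a gain of 0.53 ± 0.11 at 21 h (adjusted p = 0.00918, but 0.0742 without control library 2 and 0.0563 without 21 h library 2).

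**Figure D2:**
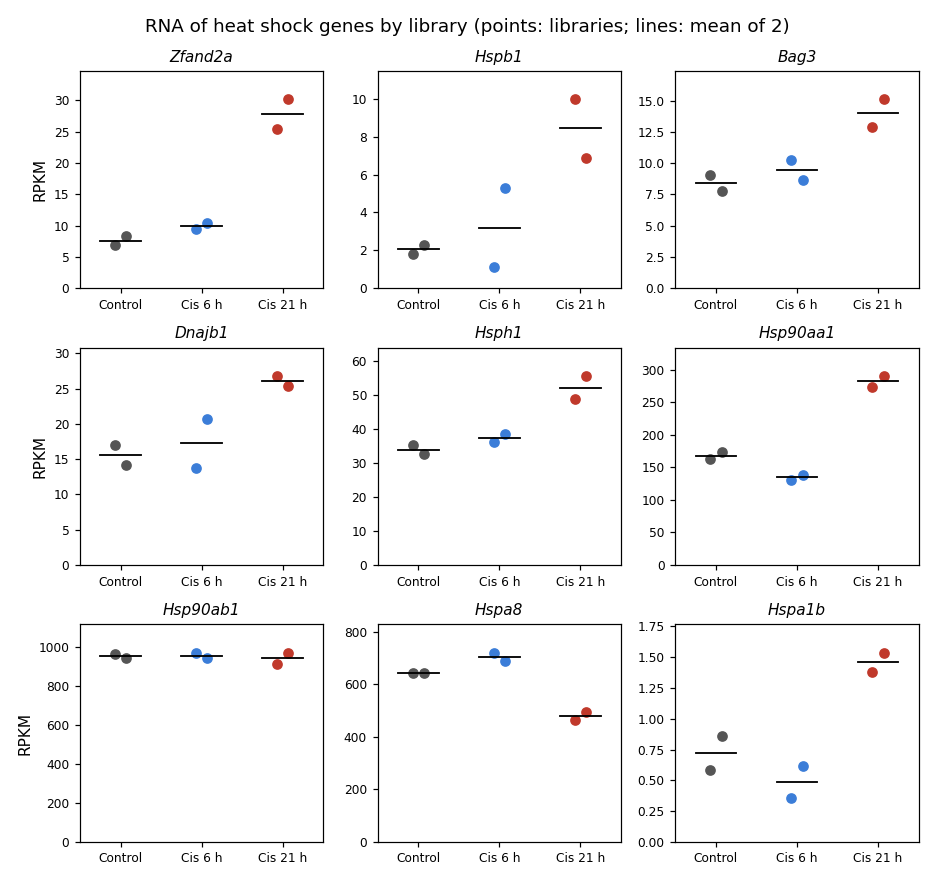
RNA RPKM (y axis, linear, from 0) of the same genes in control, Cis 6 h and Cis 21 h cells, with points for the 2 libraries and lines for their mean. At 6 h Hspb1 and Dnajb1 libraries lie on both sides of the controls, and at 21 h Zfand2a reaches 27.8 RPKM and Hsp90aa1 282.

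Hspa8 and the HSP90 pair were by far the most abundant, and together they took 94.8% to 96.6% of the footprint reads of the 9 genes. Hspa8 encodes HSC70, the constitutive HSP70 of the cytosol. Its footprints were 2514 and 2629 RPKM in control cells, 3072 and 3112 at 6 h and 2154 and 2176 at 21 h. The 6 h libraries were above control and the 21 h libraries below it, with no overlap. Hspa8 RNA had the same order, at 644 and 642 RPKM in control cells, 720.0 and 689 at 6 h and 462 and 495 at 21 h.

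At 21 h Hspa8 footprints fell by 0.28 (log2, SE 0.07, adjusted p = 0.0138) and its RNA fell by 0.51 (SE 0.06, adjusted p = 0.000603, or 0.0542 without the variance trend). The Hspa8 footprint call was lost under quantile normalization (adjusted p = 0.0980), without the variance trend (0.0901) and without library 1 of the 21 h cells (0.0506). At 6 h Hspa8 was 0.25 above control in footprints (no test) and 0.20 ± 0.06 in RNA, where the test did not pass (adjusted p = 0.309) but limma voom on recovered reads did (0.000391). Between 6 h and 21 h its RNA fell by 0.71 (SE 0.06, adjusted p = 0.000257).

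Hsp90aa1, the stress-inducible cytosolic HSP90, moved in the opposite order. Its footprints were 1520.4 and 1498 RPKM in control cells, 1334 and 1269 at 6 h and 2346 and 2146 at 21 h. Hsp90aa1 RNA was 163 and 173 RPKM in control cells, 131 and 139 at 6 h and 274 and 290.5 at 21 h. In both assays the 6 h libraries were the lowest and the 21 h libraries the highest, without overlap.

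At 21 h Hsp90aa1 footprints rose by 0.54 ± 0.08 (log2, adjusted p = 0.000922) and its RNA by 0.66 ± 0.08 (adjusted p = 0.000466). At 6 h the Hsp90aa1 differences were -0.23 in footprints (no test) and -0.25 ± 0.08 in RNA (adjusted p = 0.309, and 0.0186 with limma voom). From 6 h to 21 h Hsp90aa1 RNA rose by 0.91 ± 0.08 (adjusted p = 0.000257).

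Hsp90ab1, the constitutive partner, passed no test with limma on log2 RPKM. Its footprints were 3179.7 and 3589.6 RPKM in control cells, 3590.0 and 3547 at 6 h and 3376 and 3338 at 21 h, and its RNA lay between 911 and 969 RPKM in all 6 libraries. The Hsp90ab1 difference at 21 h was -0.05 in footprints (interval -0.24 to 0.15, adjusted p = 0.699) and -0.11 in RNA (interval -0.23 to 0.02, adjusted p = 0.203). Both signs turned positive with quantile normalization (0.05 and 0.12), while limma voom called Hsp90ab1 RNA lower at 21 h than in control cells (-0.10, adjusted p = 0.0108) and than at 6 h (-0.17, adjusted p = 3.1e-05).

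The make-up of the HSP90 pair is described by library and was not tested. Hsp90aa1 made up 32.3% and 29.4% of the summed footprint RPKM of both genes in control cells, 27.1% and 26.4% at 6 h and 41.0% and 39.1% at 21 h. In RNA its share was 14.4% and 15.5% in control cells, 11.9% and 12.8% at 6 h and 23.1% in both libraries at 21 h. The groups did not overlap in either assay, although with 2 libraries against 2 no exact permutation test can give a two-sided p below 0.333.

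**Figure D3:**
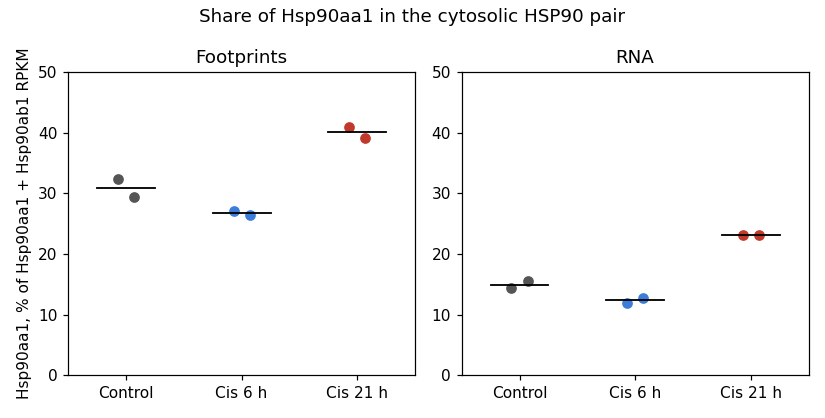
Hsp90aa1 as a percentage of the summed RPKM of Hsp90aa1 and Hsp90ab1 (y axis from 0) for footprints (left) and RNA (right). Points are the 2 libraries of each group and lines their mean, with the lowest shares at 6 h (26.4% and 27.1% in footprints) and the highest at 21 h (39.1% and 41.0%).

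Hspa1b, which encodes the heat-inducible HSP70, was close to the detection limit. It had 0 and 2 footprint reads in the control libraries, 8 and 6 at 6 h and 2 and 1 at 21 h, or 0 to 0.923 RPKM. RNA reads of Hspa1b numbered 4 and 7 in control cells, 2 and 4 at 6 h and 9 in each library at 21 h, or 0.359 to 1.54 RPKM. Footprints were thus highest at 6 h and RNA highest at 21 h, at counts of only 0 to 9 reads per library. Hspa1b failed the filter on low values (mean of at least 1 RPKM), so no fold is given. Reads shared with the near-identical Hspa1a could have been assigned to either copy or dropped, and how they were treated is not given in the sources used here, so these values are uncertain.

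Of the 8 genes tested, 6 rose in footprints at 21 h (Zfand2a, Hspb1, Bag3, Hsph1, Hsp90aa1 and Dnajb1) and Hspa8 fell, where 39.1% of all 10383 transcripts were called in either direction and 18.9% were called higher. The same 6 genes rose in RNA at 21 h and Hspa8 again fell, where 23.8% of 9443 transcripts were called and 11.6% called higher. The median change of the 8 genes at 21 h (log2) was 0.54 for footprints and 0.64 for RNA. Over all transcripts it was 0.01 and 0.02, which the scaling of the libraries holds near 0. The counts and medians of the 8 genes include Zfand2a. Its control footprints are also the baseline of the rise that chose the list. Leaving out library 1 or 2 of the control or of the 21 h RNA, however, left only 2 or 3 of the 6 RNA rises (3 without control 1, 2 without control 2, 3 without 21 h library 1 and 2 without 21 h library 2). Over all transcripts the RNA calls higher at 21 h went from 1093 to 510, 539, 625 and 562 in the same order of fits. Dnajb1, Bag3 and Hspb1 lost their RNA calls in each of these fits, at adjusted p of 0.0636 to 0.204, with the same direction.

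In RNA at 6 h none of the 8 genes passed with limma on log2 RPKM, where 0% of 9443 transcripts were called, 1086 had an unadjusted p under 0.05 and limma voom called 229. The unadjusted p was under 0.05 for 3 of the 8 (Zfand2a, Hspa8 and Hsp90aa1), and voom called Hspa8 higher and Hsp90aa1 lower. The 6 h footprint contrast, in which 2.04% of all transcripts were called in either direction, chose the list, so no calls of these genes are given for it. Apart from Zfand2a, the 6 h footprint differences ran from -0.23 for Hsp90aa1 to 0.50 for Dnajb1.

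No TE difference of the 8 genes passed at 21 h, where 0.409% of 9295 transcripts were called (limma), and voom called none of the 8 either. The unadjusted p was under 0.05 for 2 of them, Zfand2a and Hspa8, the latter with a TE difference of 0.23 (interval 0.04 to 0.42, adjusted p = 0.321). For the other 6 the difference ran from -0.45 for Hspb1 (interval -1.77 to 0.87) to 0.06 for Hsp90ab1 (interval -0.16 to 0.28).

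**Figure D4:**
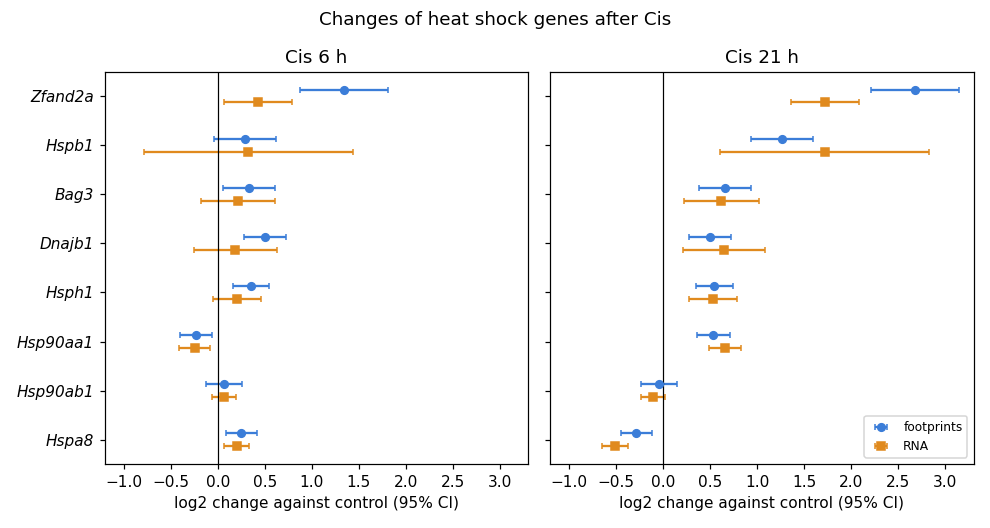
Log2 change against control (x axis) with 95% confidence intervals of the fit for the 8 genes that passed the filter on low values. Cis 6 h is on the left and 21 h on the right, with circles for footprints and squares for RNA. The 6 h footprint contrast chose the list, so its intervals are not to be read as a test. At 21 h Zfand2a stands at 2.68 in footprints and 1.72 in RNA, Hspa8 lies below 0 in both assays, and the Hsp90ab1 intervals include 0.

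Across the 12 libraries, centred within each assay, Hsph1 and Bag3 followed Zfand2a most closely (Pearson r of 0.944 and 0.910) among the 6 other genes with at least 5 RPKM on average in both assays, which leaves out Hspb1 and Hspa1b, and Hspa8 ran against Hsp90aa1 (r = -0.985). The 5 transcripts most like Zfand2a, of 5574 that met this minimum, were Sik1 (r = 0.985), Bcl2l11 (0.978), Etv3 (0.978), Ccnt1 (0.970) and Tob2 (0.969). Sik1 footprints, for example, rose from a mean of 5.0 RPKM in control cells to 8.28 at 6 h and 15.8 at 21 h. Hsph1 ranked 44 and Bag3 ranked 155 in that order. These correlations are descriptions over libraries that share treatment, depth and, within a group, condition, and carry no p.

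A wider list of 51 genes of the heat shock and chaperone machinery and of the Zfand family was followed in the same fits. At 21 h 14 of the 47 tested rose in footprints and 7 fell (beside 18.9% and 20.2% of all transcripts), with a median change of 0.14. In RNA 10 of 45 rose and 3 fell, with a median of 0.26, where 11.6% and 12.2% of all transcripts were called higher and lower. Footprint rises numbered 9 without control library 2 or either 21 h library, against 10 without control library 1, and footprint falls numbered 4 without 21 h library 2. RNA rises numbered 5 without control library 1 and 6 without control library 2 or 21 h library 2.

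HSF1 itself did not pass in any comparison with control. Hsf1 changed by 0.14 ± 0.20 in footprints (adjusted p = 0.614) and 0.40 ± 0.23 in RNA (adjusted p = 0.239) at 21 h. Of the other 2 regulators, Hsf2 and Hsbp1, a small protein that binds HSF1, both rose in footprints and neither passed in RNA.

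Among 21 HSP70 relatives and co-chaperones tested, 8 rose in footprints at 21 h and 1 fell (18.9% and 20.2% over all transcripts), and in RNA 6 of 20 rose and 0 fell (11.6% and 12.2% over all). Those that rose in both assays were Dnajb2, Dnaja1, Dnajb4, Hspa14 and Bag6, with Hspa2, Hspa13 and Dnajc7 in footprints only and Bag1 in RNA only by the threshold, and Hspa4 fell in footprints. Whether these assays differ was tested as TE, where none passed. Bag1 went in opposite directions, 0.42 ± 0.10 in RNA (adjusted p = 0.0148) and -0.24 ± 0.09 in footprints (adjusted p = 0.067). Its TE difference was -0.66 ± 0.14 (unadjusted p = 0.00045, adjusted p = 0.0672). The largest rises were those of Dnajb2, a neuronal J-domain protein, with 1.04 ± 0.17 in footprints (adjusted p = 0.00213) and 1.21 ± 0.38 in RNA (0.0470), and of Hspa2, an HSP70 known from testis, with 0.87 ± 0.22 in footprints (0.0129). Among the 12 HSP90 co-chaperones 2 rose and 2 fell in each assay, shares near those over all transcripts. Unc45a rose and Fkbp4 and Fkbp5 fell in both, with Ahsa1 higher in footprints and Stip1 in RNA. Fkbp5, an immunophilin induced by glucocorticoids, had the largest fall in footprints, which fell by 1.09 (SE 0.10, adjusted p = 0.000137), and its RNA fell by 0.86 (SE 0.16, adjusted p = 0.00531). Its relative Fkbp4 fell by 0.32 in RNA (SE 0.10, adjusted p = 0.0423), while the myosin chaperone Unc45a rose by 1.02 ± 0.21 in RNA (adjusted p = 0.00742).

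Of the other heat-inducible genes, Ubb, a polyubiquitin gene, rose by 1.14 ± 0.11 in footprints (adjusted p = 0.000164) and by 1.06 ± 0.10 in RNA (adjusted p = 0.000232). The mitochondrial chaperonins Hspd1 and Hspe1 fell in footprints at 21 h, Hspe1 by -0.52 ± 0.09 (adjusted p = 0.00280), and neither passed in RNA. In the Zfand family Zfand5 rose in both assays, Zfand3 fell in both and Zfand6 fell in footprints, with Zfand3 at -0.95 ± 0.17 in footprints (adjusted p = 0.00267) and -1.19 ± 0.20 in RNA (adjusted p = 0.00312). At 6 h, where 1.05% of all transcripts were called higher and 0.992% lower, Dnajb4, a J-domain protein, rose by 0.50 ± 0.09 in footprints (adjusted p = 0.0376), and Hspe1 stood at -0.59 ± 0.09 (adjusted p = 0.0289). Both calls were lost without any 1 of the control or 6 h libraries and kept without a 21 h library. None of the 45 passed in RNA at 6 h or in TE at either time, with 6 at an unadjusted p under 0.05 in RNA, 4 in TE at 6 h and 2 in TE at 21 h.

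**Figure D5:**
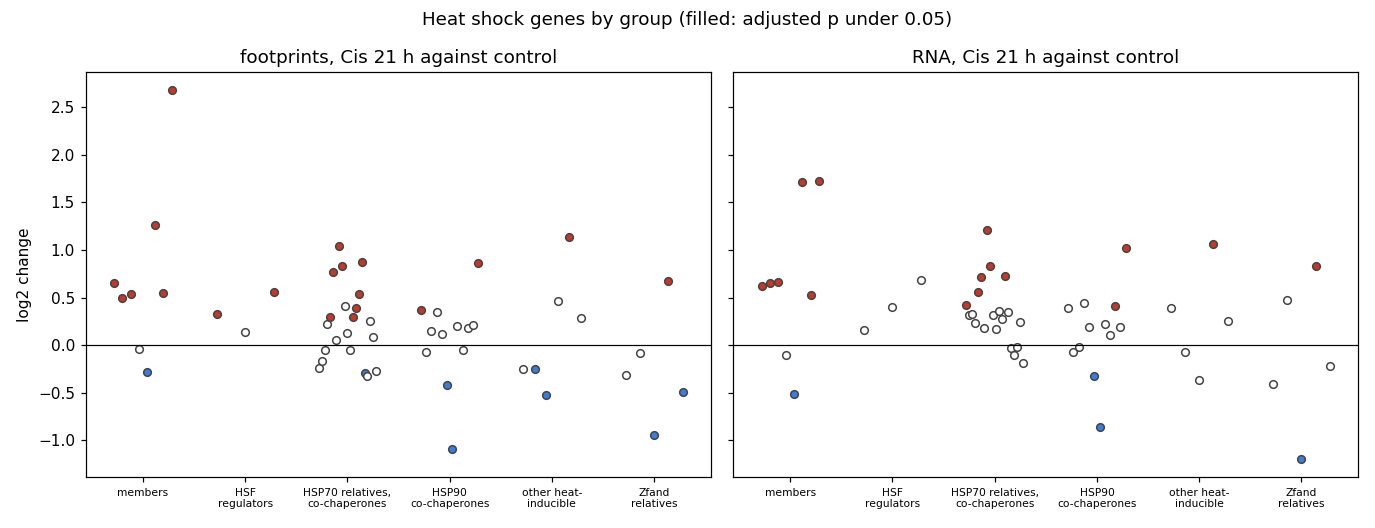
Log2 change at Cis 21 h against control (y axis) of the 8 tested genes and of the wider list by group, in footprints (left) and RNA (right). Each point is a gene and filled points passed an adjusted p of 0.05, red for higher and blue for lower, with rises and falls both present among HSP90 co-chaperones and Zfand relatives.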

How the data were processed

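Ribosome profiling and RNA-seq of KPC cells were grouped by the sample labels, with 2 libraries per assay and group. The genotype of the line is not reported here in full. The authors deposited RPKM for each library, with footprints over the coding length and RNA over the transcript length. Per the submitters' processing notes cutadapt, STAR and the build GRCm39 were used. Versions, the counting tool and the handling of reads with several matches are not given in the sources used here. RPKM times length gave whole multiples of a single read for 100% of values (tolerance 0.01), which recovered the reads. Transcripts that a library did not list were set to 0.

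RPKM was scaled by median-of-ratios factors within each assay, and log2(RPKM + 0.5) of transcripts with a mean of at least 1 entered limma's lmFit and eBayes with trend (version 3.58.1, R 4.3.3), 3 groups per model. Fold changes are on that log2 scale, which understates those of low genes. TE was the interaction of assay and treatment. Two-sided p-values were adjusted by Benjamini-Hochberg over all transcripts with a threshold of 0.05. The fits were also run on simulated counts with a single fixed spread for all genes and libraries. Replicate noise in the real libraries differed between groups, so nothing is concluded from that run. Alternatives included limma voom on the recovered reads and leaving out each library. Levels are RPKM as deposited, given as mean ± SD with n = 2. Replicate libraries differed by more than sampling noise (a chi-square of 1.45 to 3.97 for each degree of freedom).

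The members and lists were chosen with earlier results of these data known. From the wider list, Hsf1 and the 3 largest rises and falls past the threshold in each comparison with control are given with values. Other called genes are given by name only, except Bag1, whose assays went in opposite directions. As genes most like Zfand2a, the 5 with the highest correlation were taken. RefSeq coordinates are on GRCm38.p6, not the build of the reads.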

Additional observations from a re-analysis of the deposited data

Results flagged for a closer look

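The RNA change after Cis differed between 6 h and 21 h, by limma's test of the difference itself, for Zfand2a (1.30 higher at 21 h on the log2 scale), Hsp90aa1 (0.91 higher) and Hspa8 (-0.71), where 15.7% of all transcripts were called. Both 21 h libraries showed the direction against both 6 h libraries for all 3 genes, and the calls held in the 17 alternative fits of each.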

How the results depend on the processing

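Over 23 alternative settings the 8 genes gave 724 values in tested comparisons, of which 668 kept their direction and side of the threshold, 28 lost a call, 12 gained a call and 16 changed sign. Of the 638 values given as a description 33 changed sign. With limma voom, 1 of the 8 genes was called higher and 1 lower in RNA at 6 h, 2 were called lower in RNA at 21 h, and 4 were called higher and 2 lower in RNA between 21 h and 6 h. At an adjusted p under 0.1 the last pair of counts was also 4 and 2. The fall of Hspa8 in footprints at 21 h left 0 calls with quantile normalization, without the trend and when libraries were left out (range 0 to 1). The 6 RNA rises at 21 h became 3 without a filter, 4 with quantile normalization and 2 without the trend, and 2 to 3 when libraries of the control or 21 h groups were left out (range over all left-out libraries 2 to 6). The RNA fall became 0 without the trend. Between 21 h and 6 h RNA, leaving out libraries gave 2 to 4 rises, 4 being without library 2 of the 6 h RNA.

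For the wider list, the 1 rise and 1 fall in footprints at 6 h became 0 and 0 without a filter, without the trend and without any 1 of the control or 6 h libraries (range 0 to 1 over all), 4 and 2 with voom and 3 rises at an adjusted p under 0.1. At 21 h without the trend 9 rose and 4 fell in footprints and 6 rose in RNA. Leaving out libraries gave 9 to 13 rises and 4 to 7 falls in footprints and 5 to 10 rises in RNA. In TE at 21 h 1 gene was called lower with a minimum of 5 RPKM, with voom and at 0.1, where it was Bag1.

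With quantile normalization the sign of Hsp90ab1 turned in footprints (0.049), RNA (0.12) and TE (-0.076) at 21 h and in RNA between 21 h and 6 h (0.073). Without scaling the TE differences at 21 h turned for Hsph1 (-0.030) and Bag3 (-0.011). Leaving out libraries gave ranges that include both signs for Hsp90ab1 footprints at 21 h (-0.16 to 0.059, positive without control library 2), Dnajb1 RNA at 6 h (-0.094 to 0.47), Hspb1 RNA at 6 h (-0.60 to 1.25, both negative without library 2 of the 6 h RNA), and TE at 21 h of Hsph1 (-0.050 to 0.092), Hsp90ab1 (-0.048 to 0.17) and Bag3 (-0.094 to 0.18). The cause was not tested. RPKM without scaling moved the median of all transcripts by 0.14 in RNA between 21 h and 6 h and by -0.12 in TE between 21 h and 6 h.

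Over all transcripts the calls at 6 h in footprints were 212, against 0 without the trend, 17 without a filter, 37 with the replicate block, 456 with only the groups compared, 344 at a minimum of 5 RPKM, 682 at an adjusted p under 0.1 and 1276 with voom, and 17 and 30 without a control library, 6 and 0 without a 6 h library and 388 and 398 without a 21 h library. In TE at 21 h they were 38, against 0 to 151. The replicate numbers did not pair the libraries (correlations of replicate differences between groups of -0.073 to 0.050). With the replicate block 5 in place of 6 of the 8 genes rose in RNA at 21 h, Dnajb1 being lost (adjusted p = 0.0508), and the wider list had 0 calls in footprints at 6 h. The double element was found in 6 genes, against 1 for the triple element. A sum of Hspa1a and Hspa1b was not run, since Hspa1a was not analysed here. Hspb1 had 2 to 21 RNA reads per library, which limits the precision of its RNA values.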
